A study of Mus musculus with 6 samples.

Results

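The genes of cholesterol synthesis, of its control by the SREBP transcription factors and of sterol export were followed in rd1/rd1 mouse central retina at 8 and 2 months of age. The 27 genes were named by their place in the pathway, but with earlier results of these data known. Of them, 19 code for synthesis enzymes, 6 for control and intracellular sterol transport, and 2 for export pumps. Every probe whose only gene symbol was one of them was used, and the brightest probe above the filter on dim probes stood for its gene. In all, 24 of the 27 genes had such a probe, of 19057 genes so named on the array, and 22 had one above the filter. Acat2, Hmgcs1 and Fdft1 were not analysed here.

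All mice were homozygous for rd1, a mutation of the rod phosphodiesterase gene Pde6b that kills rods and then cones, and none was treated. The samples were 3 from 8 months and 3 from 2 months. Neither age had a group without the mutation, so a change with age alone and a change with degeneration cannot be told apart. Each sample pooled 3 to 6 punches of 1.5 mm, how many animals a pool held is not given, and the p-values cover only variation among the pools. Replicate numbers follow the titles. In the descriptions 2 month replicates 1 and 2 both carry the number 1, and replicate 3 the number 2, so whether the pair came from separate pools is not settled by the labels.

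Cells build cholesterol from acetyl-CoA through mevalonate, farnesyl diphosphate, squalene and lanosterol. When sterol in the endoplasmic reticulum is scarce, Scap carries the SREBP precursors to the Golgi, where they are cut into transcription factors that switch on the synthesis genes. When sterol is plentiful, Insig proteins hold Scap back, and oxysterols activate LXR receptors, which switch on the export pumps Abca1 and Abcg1. The retina makes part of its own cholesterol, takes up part from blood lipoproteins, and clears sterol through the oxidising enzymes Cyp27a1 and Cyp46a1.

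None of the 22 tested genes passed the test over all genes, in either direction (limma, adjusted p under 0.05, smallest adjusted p = 0.213), where 0.224% of the 12046 tested genes did. Their changes nevertheless leaned one way: 19 were positive and 3 negative, against 50.2% positive among all tested genes. Some of the positive changes lay close to 0, such as those of Insig2 and Lbr at 0.01. The median change was 0.14 on the log2 scale, against 0.0005 for all tested genes. For 8 genes every 8 month sample lay above every 2 month sample, and for 0 the reverse held, where 7.45% of all tested genes separated upward and 7.59% downward. At an unadjusted p below 0.05, 7 were higher and 0 lower, where 5.10% of all tested genes were higher. None of the 22 had passed the filter through the samples of 1 age alone. The genes were chosen with the lean of the synthesis genes already known, so that lean is not independent support.

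**Figure D1:**
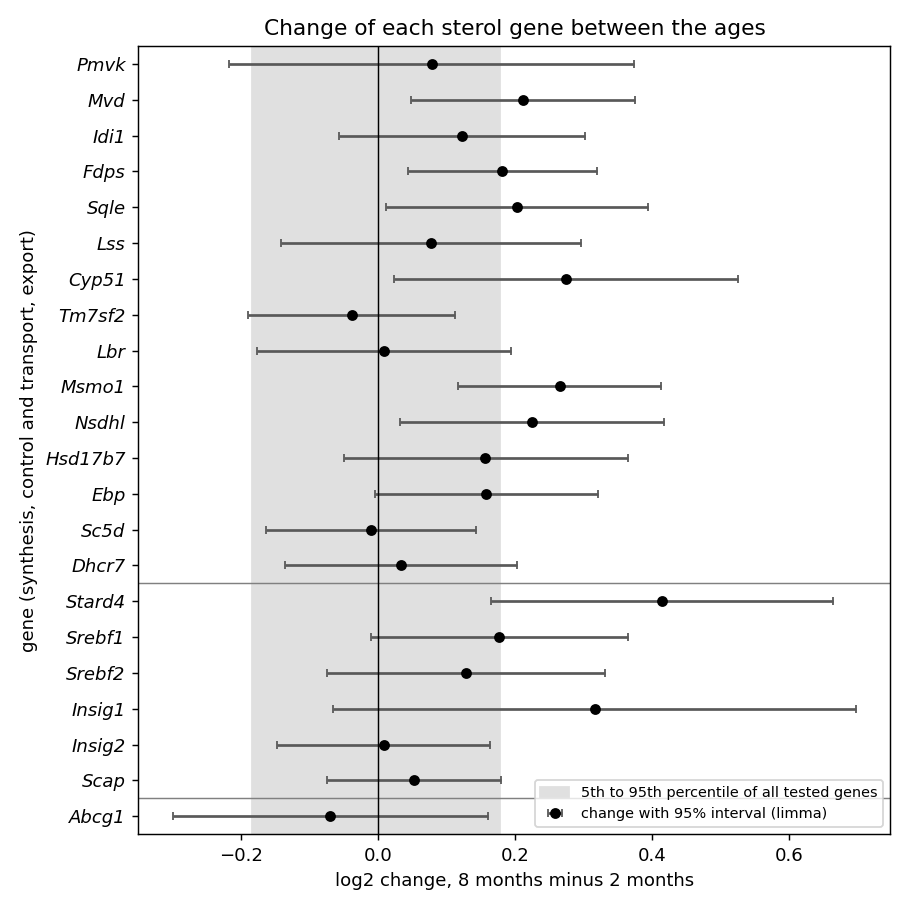
Change of the 22 tested sterol genes, 8 months minus 2 months, on the log2 scale (points) with limma's 95% interval (bars); the shaded band holds the 5th to 95th percentile of all tested genes, −0.18 to 0.18. Stard4 (0.41) and Insig1 (0.32) lie farthest to the right, and Abcg1 (−0.07) farthest to the left.

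The promoters of 4 synthesis genes are shown because SREBP acts together with the factor NF-Y, whose box CCAAT lies near the start of many sterol genes. They are those of the smallest p among the synthesis genes with an entry in the RefSeq promoter table (GRCm38.p6), from 250 bases before to 50 after the start site, read along the gene. Capitals mark CCAAT or its reverse complement.
Msmo1, chr8:64733529-64733828, minus strand: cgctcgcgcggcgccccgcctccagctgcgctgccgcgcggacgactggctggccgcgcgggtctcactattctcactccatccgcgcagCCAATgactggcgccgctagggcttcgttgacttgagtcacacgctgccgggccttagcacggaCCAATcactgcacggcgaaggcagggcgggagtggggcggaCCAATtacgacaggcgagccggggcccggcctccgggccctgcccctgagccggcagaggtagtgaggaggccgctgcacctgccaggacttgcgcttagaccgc
Mvd, chr8:122443373-122443672, minus strand: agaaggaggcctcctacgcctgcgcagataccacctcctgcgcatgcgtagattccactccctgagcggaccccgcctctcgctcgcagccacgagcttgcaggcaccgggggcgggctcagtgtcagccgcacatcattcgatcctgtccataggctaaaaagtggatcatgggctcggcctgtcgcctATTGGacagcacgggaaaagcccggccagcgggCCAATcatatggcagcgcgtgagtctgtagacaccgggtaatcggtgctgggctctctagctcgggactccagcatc
Nsdhl, chrX:72918271-72918570, plus strand: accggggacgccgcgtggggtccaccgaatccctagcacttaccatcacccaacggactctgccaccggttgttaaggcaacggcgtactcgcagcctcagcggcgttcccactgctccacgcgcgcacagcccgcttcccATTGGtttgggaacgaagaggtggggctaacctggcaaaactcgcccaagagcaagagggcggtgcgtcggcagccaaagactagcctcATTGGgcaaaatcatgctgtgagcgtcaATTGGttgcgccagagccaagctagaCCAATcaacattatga
Cyp51, chr5:4104648-4104947, minus strand: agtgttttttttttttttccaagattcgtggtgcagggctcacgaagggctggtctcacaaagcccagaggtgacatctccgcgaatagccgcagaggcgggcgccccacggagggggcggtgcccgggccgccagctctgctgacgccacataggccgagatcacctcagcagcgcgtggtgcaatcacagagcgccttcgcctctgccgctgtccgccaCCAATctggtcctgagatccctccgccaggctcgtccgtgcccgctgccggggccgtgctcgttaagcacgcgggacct

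Msmo1 held 3 such boxes, whose first bases lay 160, 96 and 55 bases before the start site. Those of Mvd lay 60 and 27 bases before it, and that of Cyp51 29 bases before it. Nsdhl held 4, at 109 and 20 bases before and at bases 9 and 35 of the transcript. Of the 22 sterol genes with a window, 19 had a CCAAT on either strand in at least 1 of their windows, against 43% of the 9694 tested genes with a window. Windows without the letters were those of Acat2, Scap and Abca1 and some alternative starts. The sterol element was searched on both strands only as TCACNCCAC, so windows without these letters may hold other forms of it. These letters were found in 1 gene, Hmgcs1, as TCACCCCAC 137 bases before the start, and did not overlap a CCAAT there. TCACNCCAC occurred in 1.43% of the 9694 tested genes with a window. Counted by window, it occurred in 1.24% of all 32851, and CCAAT in 37.4%. Fdps, Fdft1, Sqle, Stard4 and Abcg1 had no entry. The 22 genes with a window are thus not the 22 tested, and include the untested Acat2, Hmgcs1, Mvk and Abca1. A match of letters is a description, not a binding site.

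At the mevalonate end of the route, Mvk, mevalonate kinase, stayed under the filter: its probe read 7.15, 7.14 and 7.17 at 8 months and 7.13, 7.12 and 7.12 at 2 months, all under the median of the arrays, 7.19, in the range where dim probes crowd together. Pmvk, the kinase of the next step, had 8.39, 8.79 and 8.56 at 8 months, against 8.59, 8.64 and 8.28 at 2 months. The ages overlapped, and the change of 0.08 (SE 0.126) was smaller than its error.

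Mvd decarboxylates the product of these kinases to make isopentenyl diphosphate, the building block of all isoprenoids. It was at 8.31, 8.31 and 8.26 in the 8 month samples and at 8.09, 7.95 and 8.21 in the 2 month samples, with no overlap. Its change was 0.21 (SE 0.0697, 95% interval 0.05 to 0.37, limma adjusted p = 0.346). Idi1, which interconverts the isoprene units, had 7.31, 7.54 and 7.56 at 8 months and 7.31, 7.32 and 7.41 at 2 months. There 8 month replicate 1 was the lowest of all samples, level with 2 month replicate 1 and close to the array median. The change was 0.12 (SE 0.0768), or 0.08 to 0.20 with 1 sample left out.

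Fdps joins these units into farnesyl diphosphate, the last intermediate shared with protein prenylation and with ubiquinone and dolichol synthesis. Its bright probe read 11.54, 11.53 and 11.60 at 8 months and 11.34, 11.31 and 11.47 at 2 months, again without overlap. The change was 0.18 (SE 0.0590, interval 0.04 to 0.32, adjusted p = 0.340). Its other probe, at 7.27 at both ages, had a change of −0.001. Of the 4 tested genes of this segment all had positive changes, with a median of 0.15.

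Sqle, squalene epoxidase, is a rate-limiting step after mevalonate. It had 10.93, 10.63 and 10.81 at 8 months, against 10.63, 10.52 and 10.62 at 2 months. The ages did not overlap, but 8 month replicate 2 lay only just above 2 month replicate 1, and the change was 0.20 (SE 0.0816, adjusted p = 0.447). It was 0.13 without 8 month replicate 1. A dimmer probe of Sqle had a change of 0.11, with overlap. Lss, which closes squalene epoxide into lanosterol, had 7.55, 7.73 and 7.88 at 8 months and 7.52, 7.70 and 7.71 at 2 months, a change of 0.08 (SE 0.0933).

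The conversion of lanosterol to cholesterol starts with the removal of methyl groups. Cyp51, the lanosterol demethylase, had 9.32, 8.90 and 8.95 at 8 months and 8.80, 8.75 and 8.79 at 2 months. All 8 month samples were above all 2 month samples, with replicate 1 well above the rest. The change of 0.27 (SE 0.107, adjusted p = 0.433) was 0.14 without that sample (adjusted p = 0.558, and 0.356 to 0.632 over all alternatives).

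Msmo1, Nsdhl and Hsd17b7 code for the 3 enzymes that together remove the remaining pair of methyl groups. Msmo1, the oxidase, had 10.25, 10.13 and 10.14 at 8 months, against 9.97, 9.81 and 9.95 at 2 months. The ages lay apart and each was tight: the change was 0.26 (SE 0.0632, interval 0.12 to 0.41), with the smallest adjusted p of the sterol genes, 0.213 (limma). Leaving out any 1 sample gave 0.21 to 0.30.

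Nsdhl, the dehydrogenase of this complex, had 8.11, 7.91 and 7.93 at 8 months and 7.80, 7.62 and 7.86 at 2 months. Its change was 0.22 (SE 0.0821, adjusted p = 0.401), without overlap. Its 3 other probes changed by 0.18, 0.12 and 0.008, the last with means of 7.34 at 8 months and 7.33 at 2 months, close to the array median. Hsd17b7, the ketoreductase, had 9.65, 9.35 and 9.34 at 8 months and 9.27, 9.34 and 9.26 at 2 months. Here 8 month replicate 1 stood alone: the change was 0.16 (SE 0.0884) with it and 0.06 without it.

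Tm7sf2 and Lbr are alternative reductases of the step after Cyp51, and Lbr is also a protein of the inner nuclear membrane. Tm7sf2 had 7.29, 7.41 and 7.40 at 8 months and 7.47, 7.44 and 7.30 at 2 months, a change of −0.04 (SE 0.0643). Lbr had 8.99, 8.90 and 9.07 at 8 months and 8.96, 9.12 and 8.86 at 2 months, a change of 0.01 (SE 0.0791). For both the ages were interleaved. The 95% intervals of the change were −0.19 to 0.11 for Tm7sf2 and −0.18 to 0.19 for Lbr, both of which include no change. The probe of Tm7sf2 lay close to the array median, where a change is hard to read.

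Ebp, the sterol isomerase, had 9.37, 9.33 and 9.33 at 8 months and 9.28, 9.23 and 9.04 at 2 months, without overlap. The change was 0.16 (SE 0.0694, interval −0.005 to 0.32, adjusted p = 0.493) and 0.09 without 2 month replicate 3, its lowest sample. Sc5d, the desaturase after it, had 7.97, 7.77 and 7.95 at 8 months, against 7.88, 7.89 and 7.94 at 2 months, a change of −0.01 (SE 0.0655). Dhcr7, a reductase of the last stage, had 8.02, 7.81 and 7.92 at 8 months and 7.91, 7.95 and 7.78 at 2 months, a change of 0.03 (SE 0.0722). Of the 9 genes after lanosterol 7 had positive changes, with a median of 0.16, close to the 0.15 of the mevalonate segment. In 4 of the 9 the ages did not overlap, all higher at 8 months, where 7.45% of all tested genes separated upward.

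Over the 15 tested synthesis genes, 13 changes were positive and 2 negative, with a range of −0.04 to 0.27 and a median of 0.16. In 7 of them the ages did not overlap, all higher at 8 months, where 7.45% of all tested genes separated upward. The highest of the 6 values was in 8 month replicate 1 for 9 of the 15, and the lowest in 2 month replicate 2 for 6 and in 2 month replicate 3 for 5. The mean level relative to the 6-sample mean was 0.09, 0.03 and 0.07 in the 8 month samples and −0.05, −0.07 and −0.08 in the 2 month samples. The median stayed between 0.14 and 0.16 when any 1 sample was left out, and 11 to 13 of the 15 changes were positive.

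**Figure D2:**
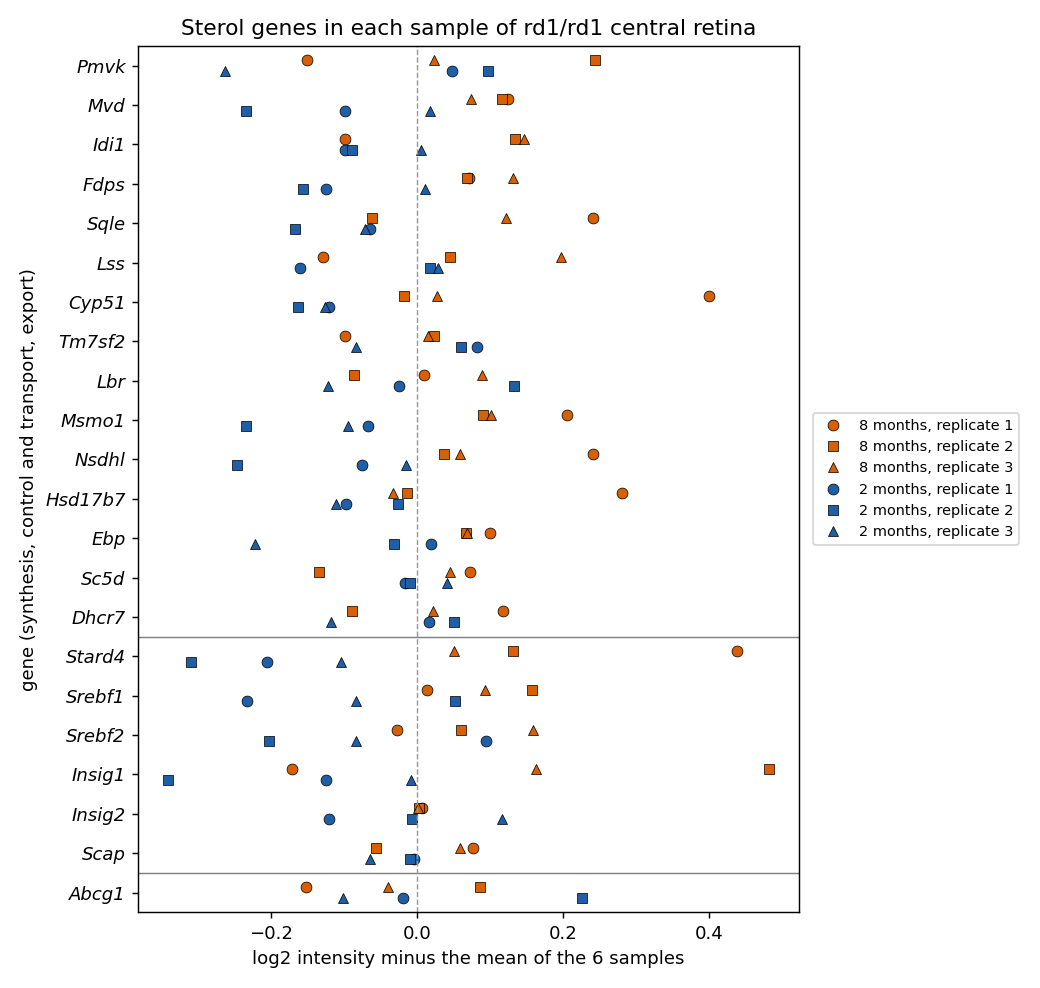
Log2 intensity of each tested sterol gene minus its mean over the 6 samples, by sample; orange symbols are 8 months, blue symbols 2 months, and the shape gives the replicate. Horizontal lines part synthesis, control and transport, and export. The ages separate for Mvd, Fdps, Sqle, Cyp51, Msmo1, Nsdhl, Ebp and Stard4, and 8 month replicate 1 is far to the right for Cyp51, Hsd17b7 and Stard4.

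Among the genes of control and transport, Stard4 had the largest change of all 22. It codes for a soluble protein that carries cholesterol between membranes and is itself a target of SREBP. Its values were 9.37, 9.06 and 8.98 at 8 months and 8.73, 8.62 and 8.83 at 2 months, without overlap. The change was 0.41 (SE 0.107, interval 0.16 to 0.66, 1.33-fold, limma adjusted p = 0.235). It was 0.30 without 8 month replicate 1, the highest sample, and the adjusted p ran from 0.0849 to 0.438 over the alternatives.

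The transcription factors themselves had smaller changes. Srebf1 codes for SREBP-1, which drives mainly fatty acid genes, and its values were 8.34, 8.49 and 8.42 at 8 months and 8.10, 8.38 and 8.25 at 2 months. They overlapped in 1 sample of each age, with a change of 0.18 (SE 0.0802, adjusted p = 0.514) that was 0.10 without 2 month replicate 1. Srebf2, which codes for the main regulator of cholesterol synthesis, had 8.60, 8.69 and 8.79 at 8 months and 8.72, 8.42 and 8.54 at 2 months. Its change was 0.13 (SE 0.0864), and 0.06 without 2 month replicate 2. The other probe of Srebf2 read 8.46, 8.56 and 8.30 at 8 months and 8.29, 8.24 and 8.19 at 2 months, with no overlap and a change of 0.20 (SE 0.0716, adjusted p = 0.441 in a fit of every kept probe).

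Insig1, which holds Scap in the endoplasmic reticulum and is induced by SREBP, was measured by 3 probes above the filter. The brightest had 8.23, 8.88 and 8.56 at 8 months, against 8.28, 8.06 and 8.39 at 2 months, a change of 0.32 (SE 0.163, adjusted p = 0.595). The next probe had 8.57, 8.24 and 8.29 at 8 months and 8.15, 8.00 and 8.36 at 2 months, a change of 0.19. The last had 8.31, 8.00 and 8.12 at 8 months and 7.97, 7.88 and 8.14 at 2 months, a change of 0.15. At all 3 the ages overlapped, and the probes disagreed on the samples: 8 month replicate 1 was the lowest of its age at the brightest probe and the highest at the others. Without 8 month replicate 2 the change of the brightest probe was 0.15.

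Insig2, a related retention protein that does not depend on SREBP in the same way, had 10.20, 10.20 and 10.20 at 8 months and 10.08, 10.19 and 10.31 at 2 months, so the 2 month samples lay on either side of the 8 month ones. The change was 0.01 (SE 0.0662, interval −0.15 to 0.16), and the next brightest probe had −0.03. Whether Insig1 and Insig2 differed in their change was not tested. Scap had 8.49, 8.36 and 8.47 at 8 months and 8.41, 8.40 and 8.35 at 2 months, a change of 0.05 (SE 0.0544), and −0.07 at a probe near the array median. All 6 genes of control and transport had positive changes with a median of 0.15. Positive changes numbered 4 when the probes of a gene were averaged and 5 without 2 month replicate 1.

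**Figure D3:**
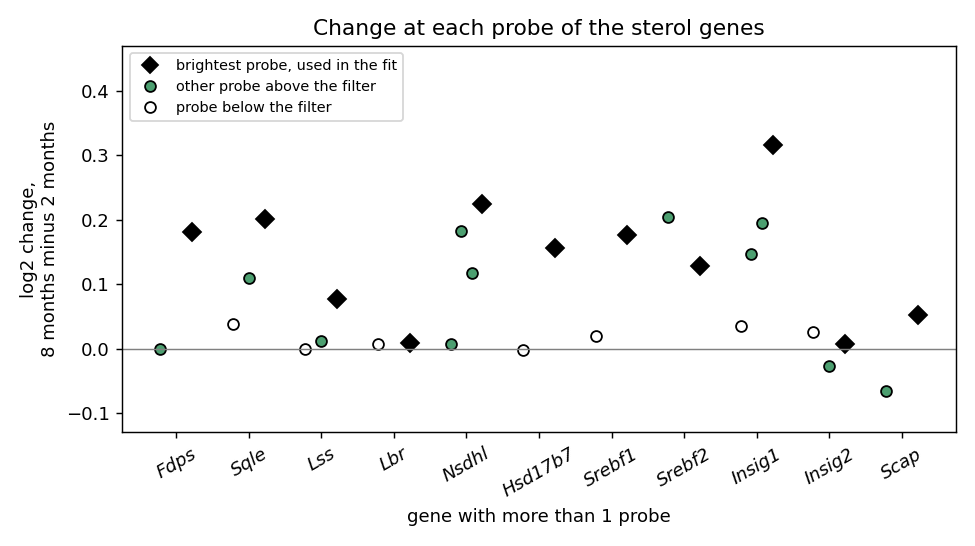
Log2 change, 8 months minus 2 months, at every probe of the 11 sterol genes with more than 1 probe; diamonds are the brightest probes used in the fit, filled circles other probes above the filter, and open circles probes below it. Within each gene the dimmest probe stands at the left; the open circles lie between −0.002 and 0.04.

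Export was represented by little. Abcg1, a pump that passes cholesterol to high-density lipoprotein, had 8.21, 8.45 and 8.32 at 8 months and 8.34, 8.58 and 8.26 at 2 months. The ages were interleaved, with a change of −0.07 (SE 0.0983, interval −0.30 to 0.16, adjusted p = 0.892). Abca1, which loads cholesterol onto apolipoproteins, stayed under the filter, at 7.09, 7.06 and 7.14 at 8 months and 7.09, 7.16 and 7.14 at 2 months, so its change of −0.03 says little about the transcript.

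The median change was larger among the brighter sterol genes. The 6 sterol genes with a mean level below 8 had a median change of 0.06, and the 16 at or above 8 had 0.17, with or without the sign. Over all tested genes the medians of both classes were within 0.001 of 0, and the median size of a change, without its sign, was 0.04 below and 0.08 above that level. Across the 22 genes level and signed change had a weak Spearman rho of 0.30, as a description, since these genes share the same 6 arrays.

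Genes around the pathway were set beside it, from lists chosen by function, and 0 of their 60 tested members passed over all genes (limma), where 0.224% of all tested genes did. At an unadjusted p below 0.05, 5 of the 60 were higher and 0 lower, where 5.10% of all tested genes were higher. Among 14 tested genes of fatty acid synthesis, the branch that SREBP-1 controls, 8 were positive and the median was 0.05. In 3 of the 14 the ages did not overlap, all higher at 8 months, where 7.45% of all tested genes separated upward. Scd1, a desaturase, had 9.06, 8.90 and 9.05 at 8 months and 8.81, 8.44 and 8.71 at 2 months, a change of 0.35 (SE 0.0991, adjusted p = 0.271). Fads2, which makes polyunsaturated fatty acids, and Acly, which supplies acetyl-CoA, had 0.17 and 0.20, and that of Fads2 was 0.11 without 8 month replicate 2. The ages lay apart for Scd1 and Fads2 but overlapped for Acly. Enzymes of sterol esters and oxysterols (7 tested) had a median of 0.03, with Cyp27a1 at 8.73, 8.51 and 8.55 at 8 months and 8.24, 8.28 and 8.37 at 2 months. Its change was 0.30 (SE 0.0717, adjusted p = 0.209), while Cyp7b1, which hydroxylates oxysterols, had 0.16 and Hsd3b7, of bile acid synthesis, −0.15 (−0.06 without 2 month replicate 2).

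The remaining lists had medians near 0. For sterol uptake and trafficking (12 tested) the median was −0.03, with 4 positive and the oxysterol-binding relatives Osbpl1a and Osbpl2 at −0.12 and −0.11 and the lysosomal lipase Lipa at −0.12. Without 2 month replicate 2 the change of Lipa was −0.008, and without 8 month replicate 1 that of Osbpl2 was −0.06. The list named for LXR and its targets (8 tested) had 0.02. Its lipid transporters Abca2, Abca7 and Abcg4, whose control by LXR was not tested, were at 0.15, 0.14 and 0.16. With 1 sample left out these ran from 0.08 to 0.23, 0.06 to 0.25 and 0.04 to 0.31, lowest without 8 month replicate 3 for Abca2, 8 month replicate 2 for Abca7 and 2 month replicate 2 for Abcg4. Branches of the mevalonate route to prenyl groups, dolichol and ubiquinone (8 tested) had −0.02, with Nus1 at 0.08, Icmt at −0.16 and Dolk at 0.14. Without 8 month replicate 1 Nus1 was at 0.03 and Icmt at 0.02, and without 2 month replicate 3 Dolk was at 0.06. SREBP processing and degradation (11 tested) had 0.005, with Prkaa1, Erlin1 and Prkaa2 at 0.06, 0.05 and −0.07. Without 8 month replicate 3 these were 0.02, 0.02 and 0.01. Differences between these lists and the sterol genes were not tested.

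Cell composition was read from markers, and in bulk tissue fewer cells of a type and less RNA per cell cannot be told apart. Mean levels of the tested Müller glia markers ran from 8.15 (Glul) to 13.4 (Dkk3) at 8 months and from 8.35 (Glul) to 13.3 (Dkk3) at 2 months. Those of inner retinal neurons ran from 7.52 (Pax6) to 13.5 (Calb2) at 8 months and from 7.49 (Pax6) to 13.3 (Calb2) at 2 months. Values below are the mean of each marker list in a sample, relative to its 6-sample mean, and single genes of a list ranged more widely. The mean of the 7 tested Müller glia markers lay at −0.06 to 0.06 at 8 months and −0.05 to 0.05 at 2 months. Myelin-forming cells make much cholesterol, and the mean of the 5 tested of 8 listed markers lay at −0.10 to 0.08 at 8 months and −0.06 to 0.15 at 2 months. Mag averaged 7.24 at 8 months and 7.19 at 2 months, near the array median, Mbp averaged 8.82 at 8 months and 8.84 at 2 months, and Mog and Mobp stayed under the filter.

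Some other markers lay lower at 8 months, in part with overlap between the ages. The mean of the 9 tested photoreceptor genes lay at −1.07 to −0.43 at 8 months and 0.38 to 0.85 at 2 months. Of these, 3 fell over all genes (limma, adjusted p under 0.05), where 8 of the 12046 tested genes fell and 0.224% passed in either direction. The mean of the 3 tested haemoglobin genes lay at −0.86 to −0.78 at 8 months and 0.29 to 1.71 at 2 months. The mean of the 8 pigment epithelium genes lay at −0.71 to −0.002 at 8 months and −0.06 to 0.72 at 2 months. The mean of the 3 tested skeletal muscle genes lay at −0.61 to −0.33 at 8 months and at −0.51 to 1.48 at 2 months, highest in 2 month replicate 2, the sample with the lowest value of 6 synthesis genes. Without it the synthesis median was 0.15. List means of microglia markers (7 tested) ran from −0.05 to 0.04 at 8 months and −0.20 to 0.15 at 2 months. Those of lens markers (6) ran from −0.40 to 0.19 at 8 months and −0.08 to 0.59 at 2 months. Those of endothelial markers (5) ran from −0.07 to 0.03 at 8 months and −0.18 to 0.10 at 2 months, and of inner retinal neurons (7) from −0.08 to 0.11 at 8 months and −0.03 to 0.02 at 2 months. The part of these cells in the sterol values was not tested.

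**Figure D4:**
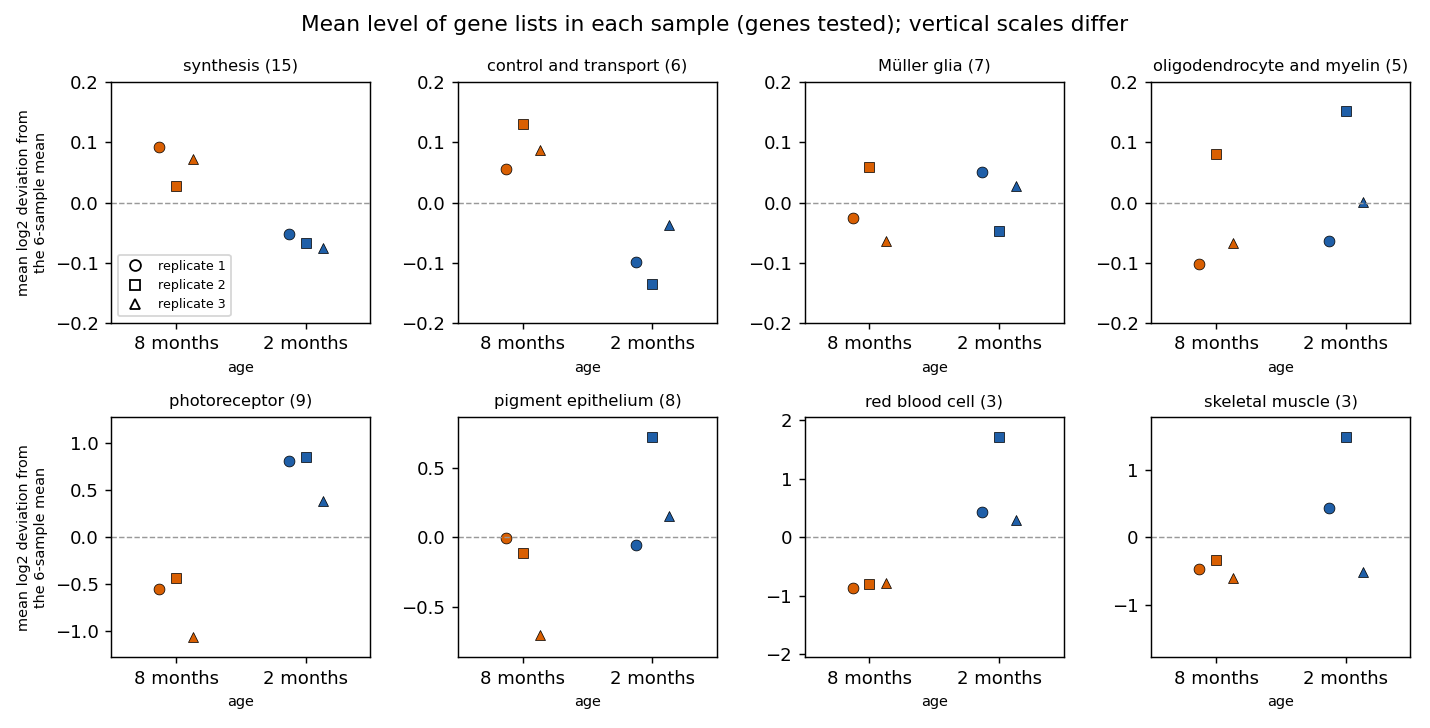
Mean log2 deviation from the 6-sample mean for lists of tested genes (number in brackets) in each sample, with 8 months at the left and 2 months at the right of each panel; vertical scales differ. Synthesis genes lie at 0.03 to 0.09 at 8 months and −0.08 to −0.05 at 2 months. Photoreceptor and haemoglobin genes run the other way on a wider scale, and the list means of pigment genes overlap between the ages.

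The samples also differed in sex-linked RNA. Xist, transcribed from the inactive X, was at 10.76, 10.48 and 11.08 at 8 months and at 9.40, 8.73 and 11.10 at 2 months, and the Y-linked Eif2s3y was at 7.12, 7.18 and 7.17 at 8 months and at 7.79, 8.27 and 7.10 at 2 months. Eif2s3y was thus highest in 2 month replicates 1 and 2, as was Kdm5d (7.33 and 7.51 there, 7.08 to 7.17 elsewhere). Neither probe passed the filter, which asks for 3 or more arrays above the median. Uty, the Y-linked probe that passed, read 7.24, 7.25 and 7.23 at 8 months and 7.23, 7.23 and 7.17 at 2 months. Its values lay close to the array median, 7.19, on every array, so Uty cannot tell the samples apart. Nsdhl and Ebp are X-linked. In 2 month replicate 3, the sample of that age with Xist high and Eif2s3y low, Nsdhl was at 7.86, the highest of its age, and Ebp at 9.04, the lowest. In Xist, Eif2s3y and Kdm5d, 2 month replicates 1 and 2 differed from all the 8 month samples, so sex-linked RNA went partly with age. The part of sex in the other sterol values was not tested.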

How the data were processed

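Total RNA of 6 rd1/rd1 central retina samples was column-purified with DNase, labelled with biotin and hybridised to Illumina bead arrays, per the labels' protocols. The values deposited by the authors span 6.98 to 14.5 over 45281 probes, which is the span of log2 intensities. Sorted columns are nearly identical, as after quantile normalization. Software and background correction were not given in the sources used here. Whether the scale is plain log2 or a variance-stabilising transform, which would compress dim genes, cannot be read from the values. The number of arrays limits the precision.

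Probes brighter than the array's 50th percentile on 3 or more arrays entered the fit (22458 probes). Names came from GEO's platform annotation, which can be old. The brightest kept probe stood for each of 12046 genes. The change, 8 months minus 2 months, was fitted with limma 3.58.1 in R 4.3.3 (lmFit, eBayes, 4 residual and 3.311 prior degrees of freedom), adjusted by Benjamini-Hochberg over all genes, two-sided, with moderated standard errors.

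All 27 genes are described, and of each other list the 3 genes with the smallest p. The genes and lists were chosen with earlier results of these data known, which already showed the lean of the synthesis genes, so that lean is not independent support. Alternatives covered normalization, filter, probe choice, prior, array weights, replicate block and each sample left out, and a fit of every kept probe was added after seeing the data.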

Additional observations from a re-analysis of the deposited data

How the results depend on the processing

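No sterol gene and no gene of the other lipid lists passed over all genes under any alternative. The count of all genes called, 19 higher and 8 lower, was 5 and 2 over all genes unfiltered, 38 and 36 with a stricter filter, and 52 and 52 with a trended, robust prior. Leaving out 1 sample gave 2 to 12 higher and 0 to 19 lower. The synthesis median was 0.12 with the probes of a gene averaged, the fatty acid median 0.0884 and the LXR median 0.0918 with the stricter filter, and the median of the mevalonate branches 0.0346 with averaged probes. With 1 sample left out, the medians of the oxysterol list ran from −0.0320 to 0.0752 and of the mevalonate branches from −0.0620 to 0.0144.

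Some changes turned sign. The change of Sc5d was 0.00262 with array weights, and those of Insig2 and Scap were −0.00975 and −0.00676 with averaged probes. Leaving out 1 sample gave ranges of −0.0340 to 0.173 for Pmvk, −0.00324 to 0.16 for Lss, −0.0502 to 0.0773 for Lbr, −0.0494 to 0.0539 for Sc5d, −0.0176 to 0.0861 for Dhcr7, −0.0513 to 0.0676 for Insig2, −0.138 to 0.0252 for Abcg1, −0.253 to 0.0173 for Icmt and −0.127 to 0.00961 for Prkaa2. The cause was not tested.

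The ages share replicate numbers in the titles, while the descriptions number the 2 month samples 1, 1 and 2, so these numbers are themselves uncertain. Deviations of same-numbered samples correlated at 0.0239, 0.139 and 0.160 over all tested genes, not all above 0.1, so the numbers were not taken as pairs, although each sample correlated best with its own number. With the replicate number as a block 14 genes were higher and 18 lower, 0 sterol genes were called, and the synthesis median was 0.16. Signal over background limits what can be read of Mvk, Abca1, Idi1 and Tm7sf2.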
